A study of Mus musculus with 16 samples.

Results

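The 9 genes Tgfb1, Tgfb2, Tgfbr1, Tgfbr2, Snai1, Snai2, Cdh2, Acta2 and Tagln were followed through 6 groups of cultured mouse brain microvascular endothelial cells (mBMEC). They were chosen by name, and the estimated reads of all transcripts of each gene were summed in every library. They are 9 of 54193 annotated genes, of which 14838 had enough reads to be tested, the 9 among them.

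TGF-beta is a secreted growth factor that is made as a latent complex, is released outside the cell and binds a pair of kinase receptors. The type II receptor (Tgfbr2) activates the type I receptor (Tgfbr1), which phosphorylates SMAD proteins that enter the nucleus with Smad4. In endothelial cells, long exposure to the ligand can start endothelial-mesenchymal transition, in which cells lose junction proteins and gain the transcription factors Snail (Snai1) and Slug (Snai2), N-cadherin (Cdh2), smooth muscle alpha-actin (Acta2) and transgelin (Tagln). This transition has been linked to cerebral cavernous malformations, vascular lesions of the brain that arise when endothelial cells lose a CCM gene.

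The cells carried floxed Pdcd10 (Ccm3), a CCM gene, with a tamoxifen-inducible Cre driven by the endothelial Cdh5 promoter, and came from C57BL/6J background mice of 8 to 10 weeks. Each culture was prepared from several pooled brains and selected with puromycin. WT cells received no 4-hydroxytamoxifen (4-OHT) and KO cells received it, so that an effect of 4-OHT itself and one of the deletion cannot be told apart. WT+P and KO+P cells received 10 µM propranolol, a beta-adrenergic receptor blocker, and WT+R and KO+R cells received 100 nM rapamycin, an inhibitor of mTORC1, for 24 h. Poly(A) RNA was sequenced from 3 libraries per group, but from 2 each of WT+P and WT+R. Between 18830503 and 26203339 reads were assigned per library, and p-values measure the spread between these libraries, which the labels call biological replicates and the study's methods independent cultures. Levels of a gene between libraries are given in CPM, counts scaled to the library total, and levels between genes in TPM, which also accounts for transcript length.

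Pdcd10, the deleted gene, was at 9.72, 11.0 and 9.72 CPM in the KO libraries, and at 31.1 and 47.0 CPM in WT replicates 2 and 3. The library labelled WT replicate 1 held 11.5 CPM, next to the KO values. The other 4 libraries labelled WT, with either drug, held 27.7 to 60.8 CPM, and the other 6 labelled KO held 7.83 to 16.7 CPM. Pdcd10 thus went against the label of this library, and values against untreated WT cells are given below also without it for the genes that the results turn on.

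The 13 endothelial markers summed to between 6409 and 12550 TPM per library, with Egfl7 the most abundant at a mean of 1829 TPM. Pericytes and smooth muscle cells also make Acta2 and Tagln, and their 10 markers summed to only 1.29 to 5.66 TPM. Pdgfrb was the most abundant of these mural markers at a mean of 0.906 TPM, Rgs5, Kcnj8, Abcc9, Vtn and Higd1b stayed under 1 TPM in every library, and Higd1b had no count. The 8 fibroblast markers summed to 1.28 to 36.1 TPM. Their most abundant gene was Col1a1 at a mean of 5.94 TPM, Lum, Dpt and Slc6a13 had no count, and their highest sum was in replicate 3 in each group that has one, at 17.2 TPM in WT and 18.8 TPM with propranolol, and at 33.4 TPM in KO and 36.1 TPM in KO+R.

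Other brain cells left small traces. The 6 astrocyte markers summed to 16.7 to 60.5 TPM, nearly all from Gja1 at a mean of 31.7 TPM, a connexin that endothelial cells also make, while Gfap, Aqp4, Slc1a3 and Gjb6 were under 1 TPM in every library. The 7 microglia and macrophage markers summed to 3.08 to 41.2 TPM, mostly from the lysosomal Cd68 at 18.1 TPM, with Cx3cr1, Csf1r, P2ry12, Ptprc and Tyrobp under 1 TPM. The 5 neuron markers summed to 1.47 to 24.5 TPM, mostly from the tubulin Tubb3 at 8.0 TPM, with Rbfox3, Snap25, Syt1 and Map2 under 1 TPM. The 5 oligodendrocyte markers summed to at most 1.1 TPM, each of them under 1 TPM in every library, and the 5 epithelial markers to at most 0.881 TPM, led by Krt18 at 0.247 TPM. In bulk RNA, fewer cells of a type and less RNA per cell cannot be told apart.

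**Figure D1:**
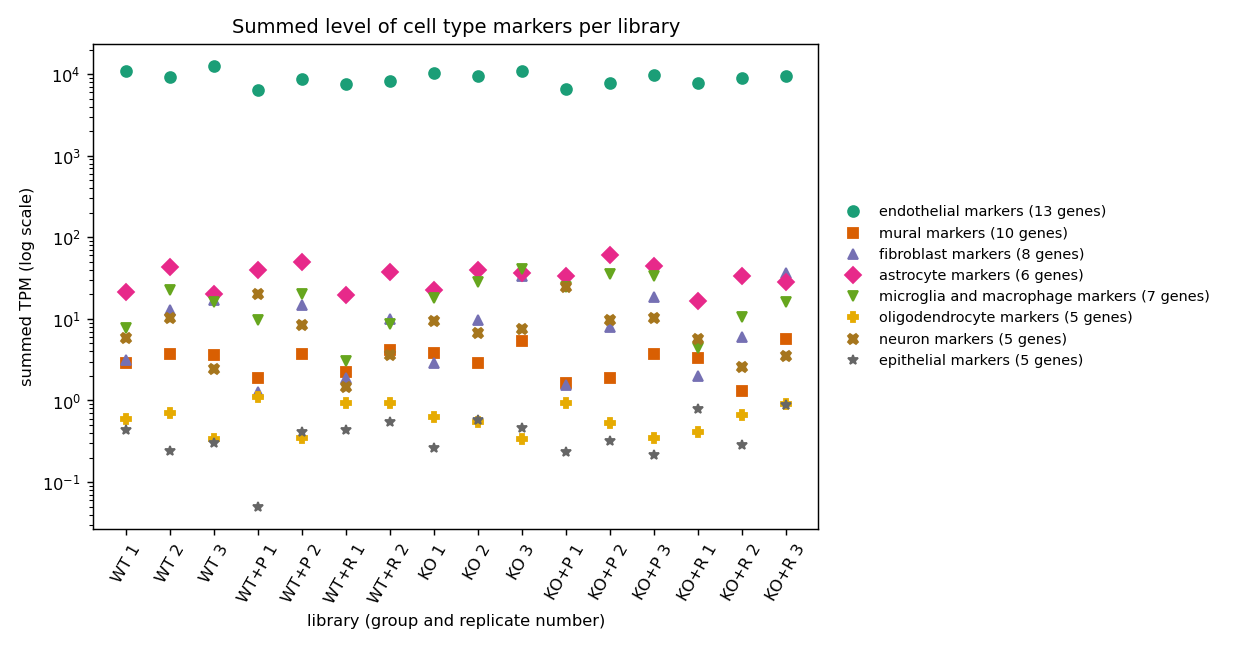
Summed TPM of the markers of 8 cell types (log scale) in each of the 16 libraries, 1 point per list and library. Endothelial markers lie between 6409 and 12550 TPM in every library, and the mural markers between 1.29 and 5.66 TPM.

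Per length, Tagln had the highest mean of the 9 genes over the 16 libraries, 451.5 TPM, with a range of 41.3 to 2068 TPM. Its group means were highest in WT+R and WT+P, at 1508 and 774.5 TPM. In untreated cells Tgfbr2 lay above Tagln, at 347.9 against 337.7 TPM in WT and 329.6 against 112.6 TPM in KO. The values that follow are means over all 16 libraries, and their order differed between groups. The type II receptor Tgfbr2 followed at 223.4 TPM, and the ligand Tgfb1 at 158.4 TPM, Acta2 at 128.9 TPM and Tgfb2 at 53.8 TPM lay below it. N-cadherin (Cdh2) was at 18.8 TPM and the type I receptor Tgfbr1 at 8.63 TPM. The transcription factors Snai2, at 5.89 TPM, and Snai1, at 3.98 TPM, were the lowest, with as few as 26 reads for Snai1 in a library. The spread of a gene's CPM between libraries was unequal, from 2.27 times between the lowest and the highest library for Tgfb1 to 28.0 times for Acta2 and 49.2 times for Tagln.

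**Figure D2:**
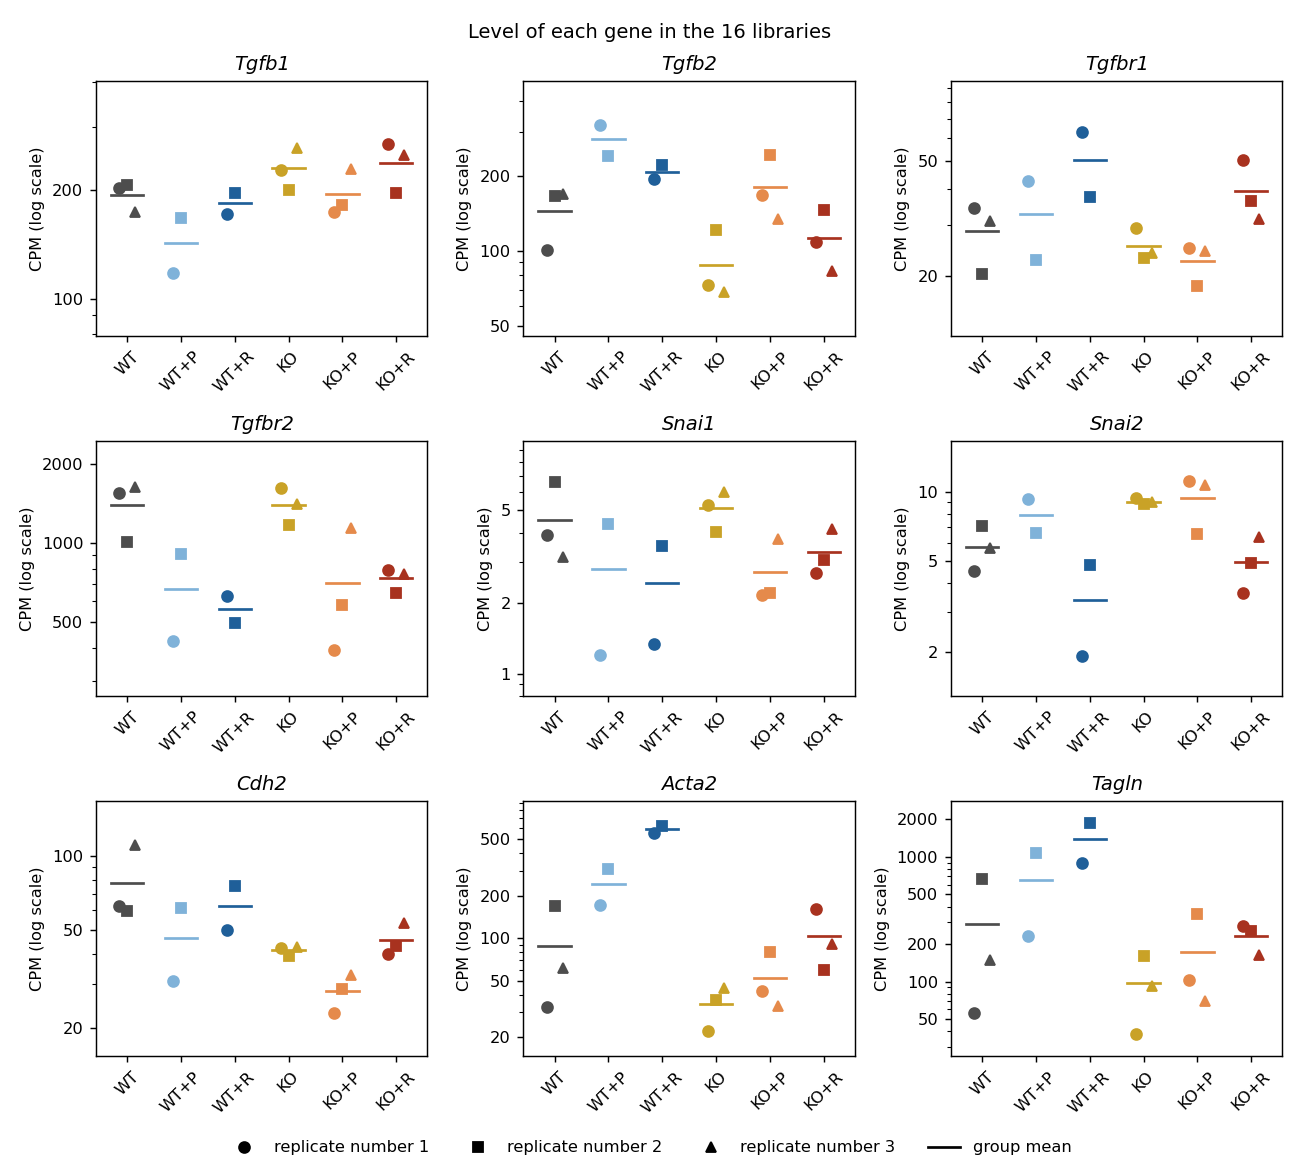
CPM of each of the 9 genes (log scale, a separate scale in each panel) in the 6 groups, with 1 point per library, its shape giving the replicate number, and a bar at the group mean. Acta2 is highest in the WT+R libraries, at 557.0 and 617.4 CPM, and Tgfbr2 is lower in all libraries with either drug than in KO libraries.

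Smooth muscle alpha-actin, encoded by Acta2, is the actin of contractile stress fibres and a common marker of mesenchymal transition. The WT libraries held 32.5, 169.7 and 61.7 CPM, the first being the library labelled WT replicate 1. The WT+R libraries held 557.0 and 617.4 CPM, and the WT+P libraries 170.8 and 309.8 CPM. Both drug groups lay above all WT libraries, WT+P by the narrow margin of 170.8 against 169.7 CPM.

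Acta2 rose with rapamycin in WT cells, from 88.0 ± 72.2 CPM (SD, n = 3) to 587.2 ± 42.7 CPM (n = 2), a log2 fold change of 2.74 ± 0.61 (SE) with an adjusted p = 0.0469 in edgeR. It was higher in both same-numbered pairs, by 17.1 and 3.64 times. Without the library labelled WT replicate 1 the log2 fold change was 2.34 and the adjusted p = 0.112, and the call was also lost without WT replicate 3 or either WT+R library. With propranolol the log2 difference was 1.45 ± 0.60 with an adjusted p = 0.478, and it ranged from 0.96 without WT+P replicate 2 to 2.35 without WT replicate 2, with 1.05 without the library labelled WT replicate 1.

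In the KO libraries Acta2 stood at 22.0, 36.7 and 44.3 CPM. KO+R libraries held 161.2, 60.2 and 90.8 CPM and did not overlap them, and KO+P libraries, at 42.7, 80.6 and 33.5 CPM, did. The log2 difference with rapamycin was 1.60 ± 0.56 and higher in 3 of 3 pairs, with an adjusted p = 0.231 in edgeR, while DESeq2 just called it (adjusted p = 0.05 after rounding). KO against WT differed by -1.36 ± 0.56, lower in 3 of 3 pairs, with an adjusted p = 0.732. This value rested largely on WT replicate 2, without which it was -0.46, and it was -1.76 without the library labelled WT replicate 1. By mean CPM the order from low to high was KO, KO+P, WT, KO+R, WT+P and WT+R. Neighbours in that order overlapped up to KO+R, while WT+P lay above KO+R, a pair that was not tested, and WT+R lay above WT+P with a log2 difference of 1.29 ± 0.68 (adjusted p = 0.398).

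Transgelin (Tagln) is a small actin-binding protein of contractile cells. The WT libraries held 56.0, 658.9 and 149.3 CPM, the WT+P libraries 232.3 and 1074 CPM and the WT+R libraries 898.7 and 1858 CPM. The KO libraries held 37.8, 161.2 and 92.0 CPM, the KO+P libraries 102.6, 346.9 and 70.2 CPM and the KO+R libraries 279.8, 254.9 and 163.4 CPM. Replicate 2 was the highest library within every group except KO+R, where replicate 1 was.

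The replicate number held 37.7% of the variance of Tagln over the 16 libraries, more than of any other of the 9 genes. Rapamycin in WT cells gave a log2 difference of 2.26 ± 0.96 with an adjusted p = 0.34, which passed with the replicate number as a block (2.50, adjusted p = 0.035). Without the library labelled WT replicate 1 it was 1.77 (adjusted p = 0.545), and 1.97 under the block, where the call was lost (adjusted p = 0.11). Leaving out single libraries moved the unblocked value from 1.64 without WT+R replicate 2 to 3.75 without WT replicate 2. Rapamycin in KO cells gave 1.26 ± 0.88, higher in 3 of 3 pairs, with an adjusted p = 0.637. The 3 other comparisons stayed further from the threshold, with -1.57 ± 0.89 for KO against WT, 0.84 ± 0.87 for propranolol in KO and 1.18 ± 0.95 in WT cells. Between KO and WT the difference was carried by WT replicate 2, since it was -0.08 without that library, and the other libraries left out in turn gave -2.15 to -1.19, with -2.06 for the library labelled WT replicate 1. Without the latter the WT propranolol value was 0.69. The sign of both propranolol values rested on replicate 2, since without KO+P replicate 2 the first was -0.17 and without WT+P replicate 2 the second was -0.31.

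In GRCm39, Acta2 lies at chr19:34217737-34232990 and Tagln at chr9:45840909-45847404, both on the minus strand. Of the exonic bases of Tagln, 66.7% are shared with Pcsk7 and Gm48529 on the opposite strand, and the libraries carry no strand, so its reads are uncertain. Pcsk7, a proprotein convertase, stayed between 40.8 and 64.2 CPM, and Tagln ranged from 0.665 to 39.1 times its level. For Acta2, 9.3% of the exonic bases are shared with Stambpl1, which held 6.66 to 12.5 CPM. The Acta2-201 transcript carried 99.9% of the Acta2 reads and Tagln-201 carried 99.7% of the Tagln reads.

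Acta2 and Tagln moved together, with Pearson's r = 0.93 over the 16 libraries, and 0.99 after the mean of each replicate number was subtracted. These and the following correlations are descriptions over libraries that share a group or a replicate number, with no p. The genes outside the 9 whose log2 CPM was most like Acta2 were Myl9, a myosin light chain (r = 0.95), Cald1, the actin regulator caldesmon (0.92), and Lpar4, a lysophosphatidic acid receptor (0.91). For Tagln they were Dmd, dystrophin (0.94), Acta1, skeletal actin (0.93), and Cald1 (0.92).

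**Figure D3:**
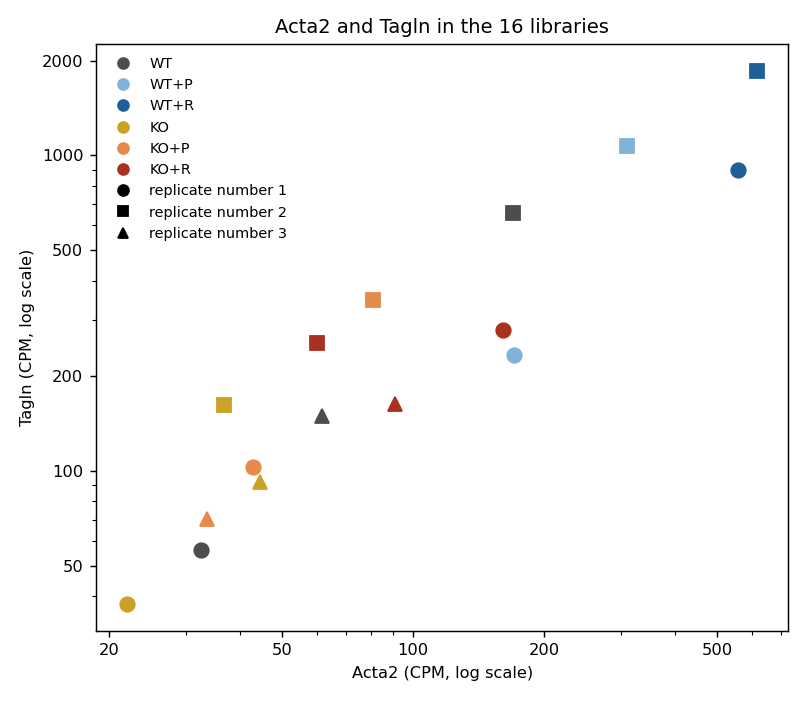
Tagln against Acta2 in CPM (log scales) in the 16 libraries, coloured by group and shaped by replicate number. The points rise together from KO replicate 1, at 22.0 and 37.8 CPM, to WT+R replicate 2, at 617.4 and 1858 CPM, and within each group replicate 2 holds the most Tagln for its Acta2.

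Acta2 is a textbook target of serum response factor, which binds the CArG box in its promoter, and the sequences around its start are shown for that reason. Promoters of 250 bases before the RefSeq start (table build GRCm38.p6) were at hand for 6 of the 9 genes, not for Snai2, Cdh2 and Tagln, with 2 starts for Tgfbr1. The exact CArG box, found in 1.47% of 32851 promoters on either strand, was in 0 of these 7. Stretches 1 base away from its letters were then searched, and 17.5% of all promoters hold at least 1 and 2.69% hold 2 or more. Acta2 held 2, at 84 to 75 and 34 to 25 bases before the start, and Tgfbr2 held 1. Both Acta2 stretches are printed 5′ to 3′ from the minus strand with the near match in capitals, at chr19:34232838-34232867 and chr19:34232788-34232817 of GRCm39, where GENCODE places them inside a longer first exon of Acta2.
Acta2 stretch 1: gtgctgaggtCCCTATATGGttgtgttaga
Acta2 stretch 2: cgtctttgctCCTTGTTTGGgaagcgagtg
The SMAD element CAGAC, searched on both strands and found in 42.2% of promoters, was in 4 of the 7, those of Tgfb2, Tgfbr2, Acta2 and the second start of Tgfbr1. The Snail E-box CAGGTG, in 17.2% of promoters on either strand, was in 1, that of Snai1. These matches are descriptions of letters, and binding was not tested.

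Tgfbr2, the receptor that binds the ligand first, was lower with both drugs in both genotypes, although no comparison passed the test in edgeR over all 16 libraries. The KO libraries held 1616, 1174 and 1405 CPM, the KO+P libraries 392.2, 581.4 and 1143 CPM and the KO+R libraries 792.3, 647.3 and 760.6 CPM. The KO libraries overlapped neither drug group, with KO+P replicate 3 only just below them. The log2 difference was -0.99 ± 0.36 with propranolol (adjusted p = 0.337) and -0.93 ± 0.36 with rapamycin (adjusted p = 0.287), each lower in 3 of 3 pairs. Without KO+P replicate 3 the propranolol value was -1.52 and passed the test. The rapamycin value passed in edgeR with the compared groups alone.

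The WT libraries held 1546, 1006 and 1626 CPM of Tgfbr2, the WT+P libraries 424.8 and 908.1 CPM and the WT+R libraries 631.3 and 494.8 CPM. Both drug groups lay below all WT libraries. The log2 difference was -1.06 ± 0.41 with propranolol (adjusted p = 0.475) and -1.31 ± 0.42 with rapamycin (adjusted p = 0.165), or -0.99 and -1.23 without the library labelled WT replicate 1. The propranolol value was -0.62 without WT+P replicate 1 and -1.71 without WT+P replicate 2. DESeq2 called the rapamycin difference in WT cells (adjusted p = 0.0293), and with the replicate block it also called propranolol (adjusted p = 0.0175) and rapamycin (adjusted p = 0.0375) in KO cells. Untreated KO and WT cells differed by 0.01 ± 0.36. Over the 16 libraries the genes most like Tgfbr2 were Csgalnact1 (r = 0.96), 9930012K11Rik (0.96) and Fam53b (0.95). The gene lies at chr9:115913361-116004800 (GRCm39, minus strand). Tgfbr2-202 was the main transcript, with 71.1 to 97.5% of the Tgfbr2 reads of a library.

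Tgfbr1, the kinase that phosphorylates SMAD proteins, was higher with rapamycin in 5 of 5 same-numbered pairs. Its WT libraries held 34.3, 20.3 and 31.0 CPM and the WT+R libraries 63.3 and 37.7 CPM. The KO libraries held 29.2, 23.1 and 24.0 CPM and the KO+R libraries 50.3, 36.4 and 31.5 CPM. Rapamycin and untreated libraries did not overlap in either genotype. The log2 difference was 0.82 ± 0.31 in WT (adjusted p = 0.254) and 0.63 ± 0.28 in KO cells (adjusted p = 0.372), and both passed with the replicate number as a block, with adjusted p = 0.0206 and 0.0326. Without the library labelled WT replicate 1 the WT value was 0.97 (adjusted p = 0.272), without WT+R replicate 1 it was 0.40, and without the first of these its call under the block was lost (adjusted p = 0.0815).

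With propranolol the KO+P libraries held 24.9, 18.5 and 24.4 CPM of Tgfbr1 and the WT+P libraries 42.7 and 22.7 CPM, both overlapping their controls. The log2 differences were -0.17 ± 0.28 and 0.20 ± 0.31, and KO against WT gave -0.16 ± 0.28. Without the library labelled WT replicate 1 the propranolol value in WT cells was 0.34, and KO against WT gave -0.02. The former was -0.33 without WT+P replicate 1 and 0.58 without WT+P replicate 2. Tgfbr1 lies at chr4:47353134-47414931 (plus strand). The genes most like it were Tmem123, Il6st, the shared receptor subunit of interleukin-6 type cytokines, and Sun2, a nuclear envelope protein, all at r = 0.94.

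Of the ligands, Tgfb2 was higher with propranolol in 5 of 5 same-numbered pairs. The KO libraries held 72.8, 121.5 and 68.4 CPM and the KO+P libraries 167.1, 242.5 and 133.8 CPM, with no overlap. The WT libraries held 101.2, 165.4 and 168.8 CPM and the WT+P libraries 319.2 and 241.0 CPM, again with no overlap. The log2 difference was 1.05 ± 0.30 in KO (adjusted p = 0.28) and 0.95 ± 0.32 in WT cells (adjusted p = 0.434), or 0.74 without the library labelled WT replicate 1. DESeq2 with the replicate block called the KO difference (adjusted p = 0.00154).

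Rapamycin libraries held less Tgfb2 than propranolol libraries of the same number and genotype, 109.0, 146.5 and 83.4 CPM in KO+R and 193.7 and 221.1 CPM in WT+R. Against untreated cells the log2 difference with rapamycin was 0.37 ± 0.29 in KO and 0.51 ± 0.33 in WT cells, the latter 0.31 without the library labelled WT replicate 1 and the former 0.16 without KO+R replicate 2 and 0.68 without KO replicate 2. KO cells held less Tgfb2 than WT cells in 3 of 3 pairs, by -0.73 ± 0.30 with an adjusted p = 0.732, and by -0.94 without the library labelled WT replicate 1, and DESeq2 with the block called it (adjusted p = 0.0441). Tgfb2 lies at chr1:186354985-186438294 (minus strand) and Tgfb1 at chr7:25386390-25404506 (plus strand). The genes most like Tgfb2 were Tex10 (r = 0.90), Zfp462 (0.89) and Hectd2 (0.89).

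Tgfb1, the more abundant ligand per length, was the steadiest of the 9 genes. The WT libraries held 202.3, 207.0 and 173.7 CPM, the WT+P libraries 118.0 and 168.0 CPM and the WT+R libraries 171.6 and 195.9 CPM. The KO libraries held 228.0, 200.4 and 262.7 CPM, the KO+P libraries 173.5, 182.2 and 228.9 CPM and the KO+R libraries 267.9, 196.9 and 250.8 CPM. WT+P was the only drug group that did not overlap its control, with a log2 difference of -0.44 ± 0.19 (adjusted p = 0.487), which was -0.21 without WT+P replicate 1 and -0.72 without WT+P replicate 2, and -0.42 without the library labelled WT replicate 1. The other 4 log2 differences lay between -0.24 and 0.25. Tgfb1 and Tgfb2 ran in opposite directions over the 16 libraries (r = -0.84), and the genes most like Tgfb1 were Hpcal1 (0.95), Eva1b (0.94) and Higd2a (0.94).

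Snail and Slug are zinc finger repressors that bind E-boxes and silence cadherin genes. Snai1 held 3.91, 6.57 and 3.16 CPM in WT and 5.27, 4.02 and 5.95 CPM in KO libraries. Drug-treated libraries were lower than their same-numbered control in 10 of 10 pairs. Each control served both drugs, so these are not 10 independent pairs. The treated libraries ran from 1.20 CPM in WT+P replicate 1 to 4.38 CPM in WT+P replicate 2. The log2 differences were -0.91 ± 0.48 for KO+P, -0.62 ± 0.48 for KO+R, -0.70 ± 0.54 for WT+P and -0.90 ± 0.55 for WT+R, none past the threshold. The values in WT cells rested on single libraries. With propranolol the difference was -0.06 without WT+P replicate 1 and -1.91 without WT+P replicate 2, and with rapamycin -0.37 without WT+R replicate 1 and -1.76 without WT+R replicate 2. Leaving out the library labelled WT replicate 1 gave -0.80 and -1.0. Snai1 had only 26 to 176 reads per library. Snai1 lies at chr2:167380113-167384734 (plus strand), and 12.7% of its exonic bases are shared with Gm75792. Most like it were Slc25a10, a mitochondrial carrier (r = 0.93), Castor1 (0.92) and Dcaf4 (0.92).

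Snai2 held 9.37, 8.84 and 9.01 CPM in KO and 4.51, 7.09 and 5.70 CPM in WT libraries, which did not overlap. KO against WT gave a log2 difference of 0.65 ± 0.33 with an adjusted p = 0.894, and 0.50 without the library labelled WT replicate 1. The KO+R libraries held 3.60, 4.88 and 6.37 CPM, all below the KO libraries, with a log2 difference of -0.87 ± 0.33 (adjusted p = 0.281). WT+R libraries held 1.92 and 4.81 CPM, KO+P libraries 11.1, 6.54 and 10.7 CPM and WT+P libraries 9.29 and 6.58 CPM. Snai2 lies at chr16:14523425-14527252 (plus strand). Mcoln2 (r = 0.92), Atg9b (0.91) and Sh3bgrl2 (0.90) were most like it, and Tgfbr1 ran against it (r = -0.72).

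N-cadherin, encoded by Cdh2, joins mesenchymal cells and also endothelial cells to pericytes. It held 62.3, 59.4 and 111.1 CPM in WT and 42.0, 39.1 and 42.7 CPM in KO libraries, which did not overlap. KO against WT gave a log2 difference of -0.91 ± 0.28, lower in 3 of 3 pairs, with an adjusted p = 0.509 in edgeR, and DESeq2 with the replicate block called it (adjusted p = 0.00772). The difference was -0.56 without WT replicate 3, the highest library, and -1.06 without the library labelled WT replicate 1. Cdh2 is among the genes that the study selected on these libraries, so its direction here is not independent evidence.

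The KO+P group had the lowest mean of Cdh2, with libraries at 22.9, 28.6 and 32.8 CPM, below all KO libraries, with a log2 difference of -0.55 ± 0.28 (adjusted p = 0.426). The KO+R libraries held 39.9, 43.1 and 53.3 CPM, the WT+P libraries 30.9 and 61.3 CPM and the WT+R libraries 50.0 and 75.4 CPM. Cdh2 lies at chr18:16700793-16942381 (minus strand). Most like it over the 16 libraries were Mid1 (r = 0.93), Cpm (0.91) and Pik3cg (0.90).

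**Figure D4:**
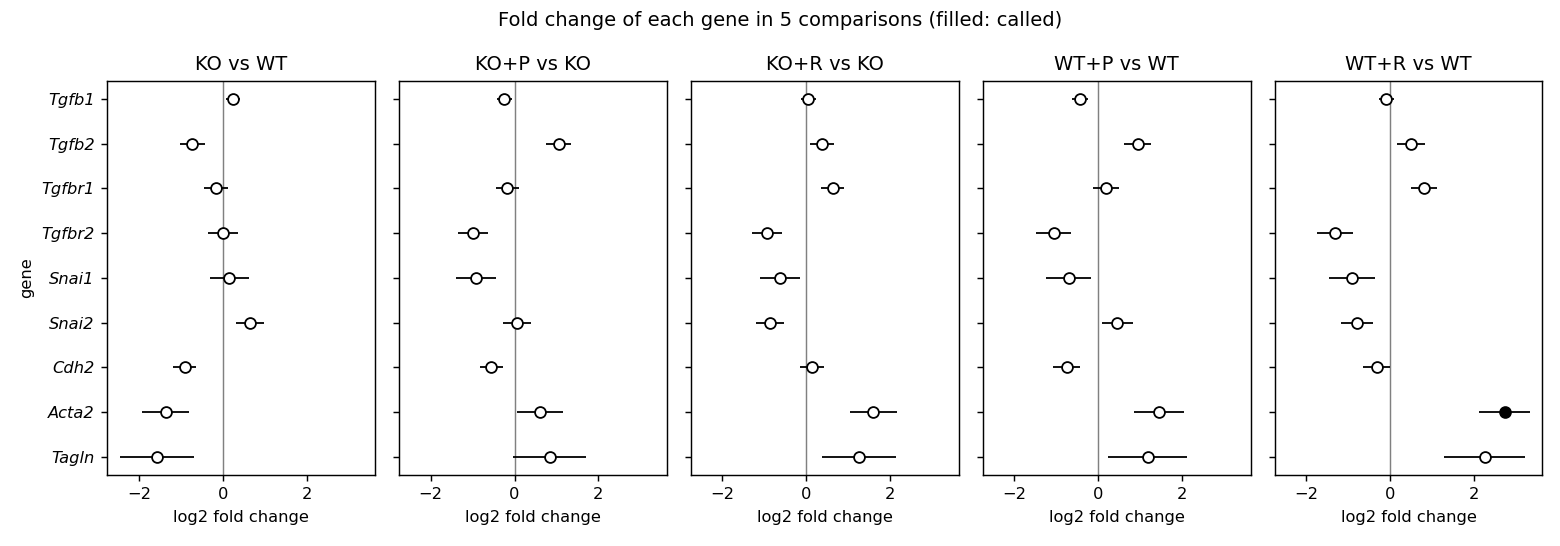
Log2 fold change of each of the 9 genes in 5 comparisons, as points with bars of 1 SE, filled where the adjusted p was under 0.05 and the fold change over 1.5. Acta2 in WT+R against WT, at 2.74, is the only filled point.

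Across the 9 genes, a gene was called at an adjusted p under 0.05 and a fold change over 1.5, in edgeR without the replicate block unless another fit is named. In KO against WT 0 of the 9 were called, where 0.00674% of all tested genes were, and 3 had an unadjusted p under 0.05 (6.07% of all genes), Tgfb2, Cdh2 and Acta2, all lower in KO. Propranolol called 0 of the 9 in KO cells (0.00674% of all genes) and 0 in WT cells (0.00674%), with 2 and 5 at an unadjusted p under 0.05 (12.6 and 9.87% of all genes). With rapamycin 0 of the 9 were called in KO cells (1.51% of all genes) and 1, Acta2, in WT cells (1.4%), with 4 in each at an unadjusted p under 0.05 (12.5 and 12.6% of all genes). With the replicate number as a block 1 of the 9 was called in KO+R against KO, where 4.98% of all genes were, and 3 in WT+R against WT, where 4.56% were. These 3 became 0 when the library labelled WT replicate 1 was also left out, where 404 of 14831 genes were called. DESeq2 called 0 of the 9 in KO against WT (0.228% of 27228 genes) and with propranolol in KO (0.577%) and WT cells (0.43%), Acta2 with rapamycin in KO cells (1.73%), and Tgfbr2 and Acta2 with rapamycin in WT cells (2.01%). The DESeq2 shares include low-count genes that the edgeR filter left out, and genes without an adjusted p counted as not called. They are therefore lower than shares over filtered genes would be.

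Groups whose libraries did not overlap were counted as well. Between KO and WT this held for 2 of the 9 genes and for 13.2% of all tested genes, in KO+P against KO for 4 and 18.7%, and in KO+R against KO for 5 and 24.1%. In WT+P against WT it held for 4 of the 9 and 21.2%, and in WT+R against WT for 5 and 28.6%. The median log2 difference over the 9 genes was -0.16, -0.17, 0.14, 0.20 and -0.08 in these 5 comparisons, and -0.02 to 0.00 over all tested genes. The drug comparisons within a genotype share their control libraries.

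Between KO and WT cells given the same drug, edgeR called 0 of the 9 genes with propranolol (0% of all genes) and 0 with rapamycin (0%), while DESeq2 called 1 in each, Acta2, at adjusted p = 0.0392 and 0.00964 (0.217 and 0.264% of all genes). With propranolol Acta2 was the gene furthest apart, at 42.7, 80.6 and 33.5 CPM in KO+P against 170.8 and 309.8 CPM in WT+P (log2 -2.20 ± 0.61, adjusted p = 0.497). With rapamycin it differed by -2.50 ± 0.61 (adjusted p = 0.39), KO+R libraries being lower in both same-numbered pairs. Tagln gave -1.91 ± 0.96, which was -0.43 without WT+P replicate 2, and -2.57 ± 0.97. At an unadjusted p under 0.05 were Tgfb1, Cdh2 and Acta2 with propranolol (6.19% of all genes) and Tgfb2, Acta2 and Tagln with rapamycin (5.72%).

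Set against each other, the drugs called 0 of the 9 genes in KO cells, where 4.08% of all genes were called, and 0 in WT cells, where 1.31% were. DESeq2 called 0 in each (4.12 and 2.33% of all genes). With the block DESeq2 called 4 and 2 of the 9, where 1791 and 1230 of 27228 genes were called. In KO+R against KO+P, Tgfbr1 was higher (0.80 ± 0.28) and Cdh2 was higher (0.69 ± 0.28) in 3 of 3 pairs, and both were called with the replicate block, at adjusted p = 0.00739 and 0.0449, where 9.62% of all genes were. Snai2 gave -0.93 ± 0.34 and Tgfb2 -0.68 ± 0.30 (-0.41 without KO+P replicate 2) in the same comparison. In WT+R against WT+P, Snai2 was the lowest by p, at -1.23 ± 0.42 with an adjusted p = 0.175, or -0.71 without WT+R replicate 1 and -2.04 without WT+R replicate 2.

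The response to a drug was not shown to differ by genotype for any of the 9 genes. At an adjusted p under 0.05, 0 of the 9 and 0% of all genes had an interaction of propranolol with genotype, and 0 of the 9 and 0% one of rapamycin, with 0 of the 9 at an unadjusted p under 0.05 in either, and DESeq2 called 0 of the 9 too. For Acta2 the rapamycin response was lower in KO than in WT cells by -1.14 ± 0.82 on the log2 scale, with an adjusted p = 1, and by -2.04 without WT replicate 2 and -0.73 without the library labelled WT replicate 1. Over all 6 groups, Acta2 (adjusted p = 0.00667) and Tgfb2 (adjusted p = 0.0363) differed at an adjusted p under 0.05, 2 of 9 where 7.68% of all genes did. With the replicate block these were 5, Tgfb2, Tgfbr1, Cdh2, Acta2 and Tagln, where 23.2% of all genes differed, and DESeq2 gave 8, all but Snai1, where 10.8% did.

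The rest of the pathway was read from 7 lists of 87 further genes, of which 80 were tested. In edgeR 0 were called in KO against WT or with propranolol in either genotype (0.00674% of all genes in each). In each of these 3 comparisons 7 of the 80 had an unadjusted p under 0.05 (6.07, 12.6 and 9.87% of all genes). DESeq2 called 1, 1 and 0 (0.228, 0.577 and 0.43% of 27228 genes). Rapamycin called 7 in KO cells, all higher, where 1.51% of all genes were called, and 12 in WT cells, 11 of them higher, where 1.4% were. With the replicate block these were 13 and 23 (4.98 and 4.56% of all genes), and in DESeq2 10 and 19 (1.73 and 2.01%). Without the library labelled WT replicate 1 3 remained called in WT cells, Smad7, Skil and Smurf2 (93 of 14831 genes). With the block and without that library 15 were called (404 of 14831). The median log2 difference of the 80 genes with rapamycin was 0.27 in KO and 0.37 in WT cells, against -0.02 and -0.01 over all tested genes. The 7 called in KO cells were also called in WT cells, and for none of the 12 was the response shown to differ by genotype (interaction adjusted p = 1 for each). The interactions furthest from 0 were those of Cald1 (-0.79 ± 0.30), Vim (0.71 ± 0.27) and Acvr1b (-0.65 ± 0.29).

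The summed markers of microglia and macrophages, mostly the lysosomal Cd68, were lower with rapamycin beside these genes. Their summed level was 18.2, 28.4 and 41.2 TPM in KO and 4.35, 10.4 and 16.0 TPM in KO+R libraries, and 7.76, 22.8 and 15.9 TPM in WT and 3.08 and 8.59 TPM in WT+R libraries. Cd68, Csf1r and Ptprc were the 3 tested, Csf1r and Ptprc being under 1 TPM in every library. The median log2 difference of these 3 was -1.55 in KO and -1.45 in WT cells. In edgeR 0 of them were called, with 2 and 1 at an unadjusted p under 0.05 (12.5 and 12.6% of all genes). The block called 2 in KO (4.98% of all genes) and 1 in WT cells (4.56%), all lower, and DESeq2 1 in KO cells (1.73%), also lower. Their part in the rapamycin results was not tested.

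**Figure D5:**
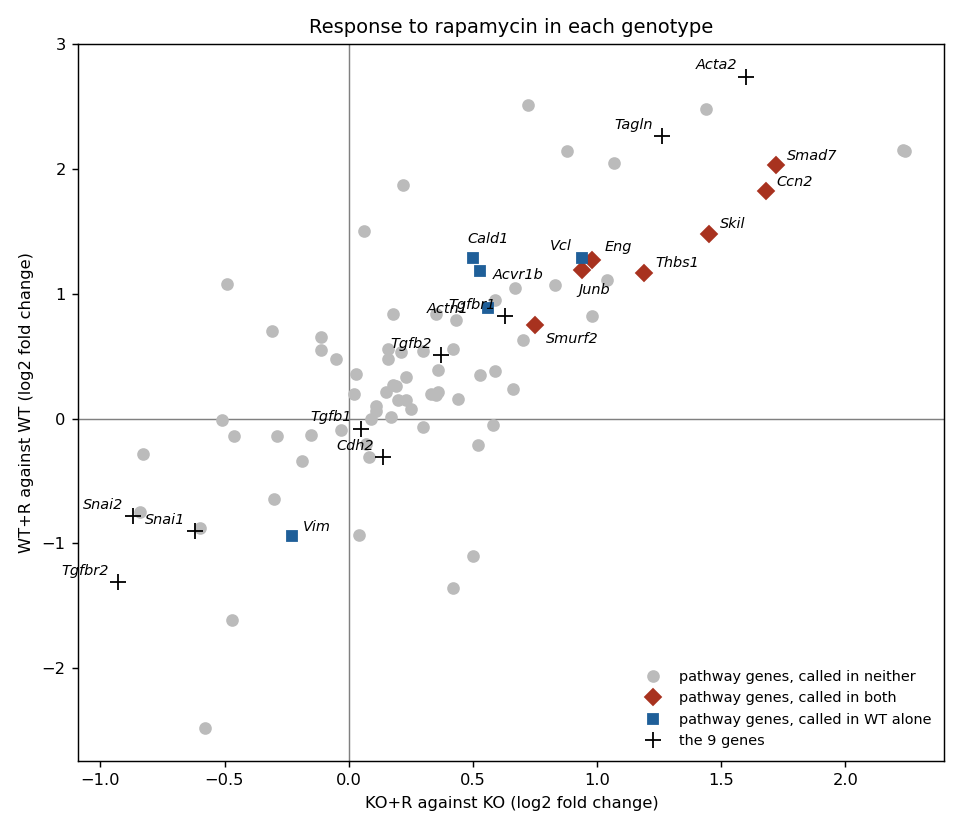
Log2 fold change with rapamycin in KO cells (x axis) and in WT cells (y axis) for the 80 tested pathway genes and the 9 genes, marked by whether they were called. Smad7, at 1.72 and 2.03, and Ccn2, at 1.68 and 1.82, lie furthest out among the genes called in both.

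SMAD proteins carry the signal, and several genes of this list shut it off again. Smad7, which blocks the type I receptor, rose with rapamycin from 16.9, 16.5 and 19.4 CPM in KO to 57.2, 61.6 and 55.7 CPM in KO+R libraries, by 1.72 ± 0.11 on the log2 scale (adjusted p = 1.33e-05). In WT cells it rose from 18.8, 21.3 and 19.5 CPM to 78.2 and 84.3 CPM, by 2.03 ± 0.12 (adjusted p = 4.49e-06). Skil, a repressor of SMAD targets, rose by 1.45 ± 0.15 in KO and 1.48 ± 0.16 in WT cells, and Smurf2, a ubiquitin ligase for SMADs and receptors, by 0.75 ± 0.11 and 0.75 ± 0.12. The call of each of these 3 genes in KO cells stood when any library of that comparison was left out, and in WT cells that of Smurf2 was lost without WT+R replicate 2. Smad4, the shared SMAD, was next by p, at 0.23 ± 0.07 and 0.33 ± 0.08, and was not called.

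DESeq2 also called Pmepa1 in WT cells, where it was at -0.88 ± 0.25 (adjusted p = 0.0258). The same list of 12 genes held 0 calls in the other 3 comparisons, in edgeR and in DESeq2. The smallest p-values between KO and WT were those of Skil (-0.30 ± 0.15), Smad7 (-0.17 ± 0.11), the SMAD anchor Zfyve9 (0.20 ± 0.13) and Smurf2 (-0.13 ± 0.11). With propranolol they were those of the phosphatase Ppm1a (0.27 ± 0.09 in KO, 0.22 ± 0.10 in WT), Pmepa1 (-0.55 ± 0.22 and -0.52 ± 0.25) and the repressor Tgif1 (0.89 ± 0.38 and 0.81 ± 0.42) in both genotypes, joined by Ski in KO (-0.42 ± 0.16) and Zfyve9 in WT cells (0.32 ± 0.14). In KO cells 4 of the 12 had an unadjusted p under 0.05 with propranolol, where 12.6% of all genes did.

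Among the 13 genes for ligand latency and activation, 11 were tested. Thrombospondin 1 (Thbs1), which can release TGF-beta from its latent complex, rose with rapamycin by 1.19 ± 0.22 in KO (adjusted p = 0.0212) and 1.17 ± 0.24 in WT cells (adjusted p = 0.0309). It stood at 1516 to 1927 CPM in KO, 3354 to 4687 CPM in KO+R, 2986 to 3794 CPM in WT and at 8619 and 6204 CPM in WT+R libraries. KO against WT gave -0.95 ± 0.22 (adjusted p = 0.366), which passed with the replicate block (adjusted p = 0.0473) and in DESeq2 (adjusted p = 0.00644). Thbs1 is also among the genes that the study selected on these libraries. Its rapamycin calls were lost when single libraries were left out, except without KO+R replicate 3 in KO cells.

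No other gene of that list was called in edgeR without the block. With rapamycin Ltbp3, a latency protein, was at 0.59 ± 0.23 in KO and 0.95 ± 0.25 in WT cells, Emilin1 at -0.51 ± 0.28 and the integrin Itgb5 at 0.98 ± 0.66 in KO, and Lrrc32 (0.56 ± 0.35) and Itgav (0.36 ± 0.27) in WT cells. The replicate block called Itgb5 in both genotypes (adjusted p = 0.0147 in KO and 0.00469 in WT) and Ltbp3 in WT cells (adjusted p = 0.0442), the latter also in DESeq2 without the block (adjusted p = 0.0164). With propranolol the lowest p in both genotypes was that of Furin, the protease that cuts the TGF-beta precursor, at -0.54 ± 0.23 in KO and -0.46 ± 0.25 in WT cells. Emilin1 (-0.55 ± 0.28), Ltbp3 (-0.37 ± 0.23) and Ltbp4 (-0.85 ± 0.78) followed in KO, and Thbs1 (0.42 ± 0.24), Ltbp1 (0.72 ± 0.46) and Lrrc32 (0.42 ± 0.35) in WT cells. Between KO and WT, Thbs1 was followed by Itgav (-0.54 ± 0.25), Lrrc32 (0.68 ± 0.32) and Ltbp2 (-1.39 ± 0.89). Without the library labelled WT replicate 1, Lrrc32 was at 1.13 in this comparison, 1.02 with rapamycin and 0.88 with propranolol, Ltbp2 at -0.71, Itgav at 0.14 with rapamycin and Ltbp1 at 0.40 with propranolol.

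Of the 7 further receptors, all tested, endoglin (Eng), the endothelial co-receptor, rose with rapamycin by 0.98 ± 0.20 in KO (adjusted p = 0.0316) and 1.27 ± 0.22 in WT cells (adjusted p = 0.0175). It stood at 1775 to 2231 CPM in KO, 3496 to 4010 CPM in KO+R, 1770 to 1928 CPM in WT, and 4676 and 4215 CPM in WT+R libraries. The activin receptor Acvr1b rose in WT cells by 1.18 ± 0.22 (adjusted p = 0.019) and was at 0.53 ± 0.20 in KO cells. Leaving out any KO or KO+R library lost the call of Eng in KO cells. In WT cells its call stood without WT replicate 2 and was lost without any of the other 4 libraries. The call of Acvr1b in WT cells stood in 1 of 5 such cases. It was lost without the library labelled WT replicate 1 (adjusted p = 0.0685 in edgeR).

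The decoy receptor Bambi had log2 differences of -1.28 ± 0.53 in KO against WT, -1.0 ± 0.53 and -1.30 ± 0.61 with propranolol in KO and WT cells and -1.61 ± 0.62 with rapamycin in WT cells, none called. Acvr2b was at 0.59 ± 0.25 and Acvr2a at -0.29 ± 0.14 with rapamycin in KO cells, and Acvr2b at 0.38 ± 0.27 in WT cells. With propranolol the co-receptor Tgfbr3 was at -1.02 ± 0.61 in KO and -1.39 ± 0.71 in WT cells, Eng at -0.27 ± 0.20 and -0.39 ± 0.23, Acvrl1 at -0.33 ± 0.24 in KO, and Acvr2b at 0.32 ± 0.28 in WT cells. The others between KO and WT were Acvrl1 (0.30 ± 0.24), Tgfbr3 (-0.54 ± 0.61) and Eng (0.07 ± 0.20). Leaving out the library labelled WT replicate 1 turned the direction of Tgfbr3 (0.03) and gave 0.03 for Eng, and it gave -0.83 for Tgfbr3 with propranolol in WT cells.

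Response and matrix genes include direct SMAD targets, and 16 of 18 were tested. Connective tissue growth factor (Ccn2) rose with rapamycin by 1.68 ± 0.30 in KO (adjusted p = 0.0185) and 1.82 ± 0.33 in WT cells (adjusted p = 0.0182), and the AP-1 factor Junb by 0.94 ± 0.20 and 1.19 ± 0.22. The KO libraries held 815.5 to 1174 CPM of Ccn2, the KO+R libraries 2440 to 3689 CPM, the WT libraries 1346 to 2041 CPM and the WT+R libraries 6812 and 5649 CPM. Of the exonic bases of Ccn2, 36.5% overlap another gene, and Ccn2 too was selected by the study on these libraries. In KO cells the call of Junb was lost without any single library, and that of Ccn2 stood only without KO replicate 2 or KO+R replicate 3. In WT cells both stood only without WT replicate 2.

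Also not called, with rapamycin, were Timp1 in KO (-0.83 ± 0.87) and Col3a1 in WT cells (-2.48 ± 1.16). With propranolol Ccn2 was at 0.59 ± 0.30 in KO and 1.06 ± 0.33 in WT cells, Junb at 0.33 ± 0.20 and 0.40 ± 0.22, Bgn at -0.70 ± 0.40 and -0.78 ± 0.45, Mmp2 at -0.62 ± 0.39 in KO, and Loxl2 at 0.77 ± 0.50 in WT cells (0.49 without the library labelled WT replicate 1). Between KO and WT cells Ccn2 (-0.88 ± 0.30), fibronectin (Fn1, -0.71 ± 0.32) and Mmp2 (-0.58 ± 0.38) were among the lowest by p, and the median of the 16 genes was -0.54.

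The further transcription factors of mesenchymal transition were not called in any of the 5 comparisons, in edgeR or DESeq2, with 8 of 9 tested. With rapamycin in KO cells the 4 lowest by p were Tcf4 (0.33 ± 0.14), Zeb1 (0.23 ± 0.11), Tcf3 (0.44 ± 0.25) and Foxc2 (0.42 ± 0.38), and in WT cells Foxc2 (0.56 ± 0.41), Tcf4 (0.20 ± 0.16), Zeb1 (0.15 ± 0.13) and Twist1 (-0.93 ± 0.85). KO against WT gave Tcf4 (-0.28 ± 0.14), Zeb1 (0.20 ± 0.11), Tcf3 (-0.42 ± 0.25) and Foxc2 (-0.41 ± 0.37). With propranolol they were Zeb1 (-0.20 ± 0.11), Tcf3 (-0.37 ± 0.25), Zeb2 (0.34 ± 0.37) and Prrx1 (-0.83 ± 0.94) in KO, and Tcf3 (-0.51 ± 0.29), Zeb2 (0.42 ± 0.40), Foxc2 (-0.23 ± 0.42) and Twist1 (-0.43 ± 0.82) in WT cells. Leaving out the library labelled WT replicate 1 gave 0.20 for this value of Zeb2 and -0.71 for Twist1.

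Among mesenchymal adhesion and filament genes, 8 of 9 tested, the intermediate filament vimentin (Vim) fell by 0.94 on the log2 scale with rapamycin in WT cells (SE 0.21, adjusted p = 0.045). It stood at 8435, 6764 and 7575 CPM in WT and 3506 and 4394 CPM in WT+R libraries, and its call was lost when any of these 5 libraries was left out. In KO cells the difference was -0.23 ± 0.18. Vim is a mesenchymal marker whose direction here was opposite to that of Acta2.

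In edgeR the other genes of that list were not called without the block. With rapamycin the integrins Itga5 (0.84 ± 0.21 in WT, 0.18 ± 0.19 in KO) and Itgb1 (0.54 ± 0.17 and 0.30 ± 0.15) and the cadherin Cdh6 (2.14 ± 1.00 and 2.24 ± 0.95) were lowest by p beside Vim. The replicate block called Cdh6 in both genotypes (adjusted p = 0.0117 in KO and 0.0152 in WT) and Itga5 in WT cells (adjusted p = 0.0214), the latter also in DESeq2 without the block (adjusted p = 0.00829). With propranolol they were Itgb1 (-0.28 ± 0.15), Vim (0.24 ± 0.18), Itga5 (0.23 ± 0.19) and Ncam1 (-0.96 ± 0.89) in KO, and Itga5 (0.54 ± 0.21), Vim (0.21 ± 0.20), Cdh6 (-0.80 ± 1.07) and Itgb1 (-0.12 ± 0.17) in WT cells. KO against WT gave Itgb1 (-0.15 ± 0.15), Ncam1 (-0.82 ± 0.88), Cd44 (-0.35 ± 0.95) and Cdh6 (-0.30 ± 0.93). When the library labelled WT replicate 1 was left out these values of Cd44 and Cdh6 were -0.79 and -0.77, and Cdh6 with propranolol was at -1.26.

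Contractile genes and the serum response factor pathway made up the last list, with 18 of 19 tested. In WT cells rapamycin called 3 (1.4% of all genes), all higher, caldesmon (Cald1, 1.29 ± 0.22, adjusted p = 0.0172), the actin crosslinker Actn1 (0.89 ± 0.18, adjusted p = 0.0287) and vinculin (Vcl, 1.29 ± 0.29, adjusted p = 0.0469). It called 9 with the replicate block (4.56% of all genes) and 6 in DESeq2 (2.01%), all higher. The median of the 18 was 0.97 there, against -0.01 over all tested genes, and 15 were above 0. When single libraries were left out the calls of Cald1 and Vcl each stood in 1 of 5 cases, without WT replicate 2 and WT+R replicate 2, and that of Actn1 in 0 of 5. Myl9, the gene most like Acta2, was at 2.48 ± 0.66 (adjusted p = 0.0849, and 0.012 with the block). In KO cells edgeR called 0 (1.51% of all genes), or 3 with the block (Cnn2, Vcl and Tpm1, all higher, 4.98%). DESeq2 called 2 there (1.73%), Vcl higher and smoothelin (Smtn) lower (adjusted p = 0.0155 and 0.0469). The median of the 18 in KO cells was 0.46, against -0.02 over all tested genes, and 17 were above 0. Lowest by p were Vcl (0.94 ± 0.26), Actn1 (0.56 ± 0.16), Smtn (-0.84 ± 0.25) and Cnn2 (0.83 ± 0.30).

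In KO against WT 0 of these 18 contractile genes were called in edgeR or DESeq2 (0.00674 and 0.228% of all genes). All 18 were below 0, with a median of -0.35 against -0.01 over all tested genes. Lowest by p were Vcl (-0.77 ± 0.26), Myl9 (-1.58 ± 0.61), Actn1 (-0.36 ± 0.16) and Cnn2 (-0.58 ± 0.30). Values of the 18 genes without WT replicate 2 are not reported here. Without the library labelled WT replicate 1 the value for Myl9 was -1.92 and for Cnn2 -0.37. With propranolol the lowest by p were Smtn (-1.27 ± 0.26, adjusted p = 0.139, and 0.000636 in DESeq2), Mrtfb (-0.59 ± 0.27), Mrtfa (-0.15 ± 0.09) and Myl9 (0.98 ± 0.61) in KO, and Srf (0.70 ± 0.28), Cald1 (0.56 ± 0.22), Smtn (-0.71 ± 0.29) and Myl9 (1.43 ± 0.65) in WT cells. The exons of Vcl, Smtn and Actn1 overlap other genes by 24.6, 19.8 and 17.3%.

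Loss of endothelial genes is the other side of mesenchymal transition, and edgeR called 0 of the 13 endothelial markers in the 5 comparisons. DESeq2 called 3 with rapamycin in WT cells (2.01% of all genes), Cdh5 and Egfl7 lower and Emcn higher, and 0 in the other 4. The median log2 difference of the 13 was -0.07 in KO against WT, -0.40 and -0.55 with propranolol in KO and WT cells, and -0.02 and -0.32 with rapamycin. With rapamycin in WT cells VE-cadherin (Cdh5) was at -0.68 ± 0.18 (adjusted p = 0.0874), Egfl7 at -0.81 ± 0.21, Emcn at 0.80 ± 0.21 and the tight junction gene Cldn5 at -0.99 ± 0.36, and the block called Egfl7 and Emcn (adjusted p = 0.0111 and 0.0176). In KO cells Emcn was at 0.35 ± 0.19, Flt1 at 0.55 ± 0.32, Egfl7 at -0.28 ± 0.18 and Cldn5 at -0.45 ± 0.32.

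With propranolol the receptor Tie1 was lowest by p in both genotypes, at -0.57 ± 0.20 in KO and -0.71 ± 0.23 in WT cells. Kdr (-1.22 ± 0.54), Cdh5 (-0.36 ± 0.16) and Esam (-0.43 ± 0.21) followed in KO, and Cldn5 (-1.03 ± 0.36), Esam (-0.67 ± 0.24) and Cdh5 (-0.50 ± 0.18) in WT cells. KO against WT gave Cdh5 (-0.39 ± 0.16), Tek (0.66 ± 0.35), Egfl7 (-0.28 ± 0.18) and Esam (-0.31 ± 0.21). Their part in the values of the 9 genes was not tested.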

How the data were processed

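The authors deposited 1 Salmon-format table per library, which lists for every transcript an estimated count, its TPM and its effective length. Per the labels' processing notes, Trim Galore 0.6.7, Salmon 1.5.2, HTSeq 0.13.5 and DESeq2 1.34.0 were used, while the study's methods describe STAR and HTSeq counts on GRCm39. The deposited expected counts were not normalized. They were added up over the transcripts of each gene (GENCODE, GRCm39), which named 99.12% of 140789 transcripts and left out 0.39 to 0.57% of reads, and were rounded. The deposited TPM were added up the same way, and the authors' effective lengths served only as an offset in an alternative.

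Genes passing filterByExpr (minimum count 10, minimum total 15) were fitted over all 16 libraries with edgeR 4.0.16 (TMM, factors 0.935 to 1.041, quasi-likelihood test, 10 residual degrees of freedom) in R 4.3.3, with Benjamini-Hochberg adjustment over 14838 genes. The biological coefficient of variation was 32.3%. A gene was called at an adjusted p under 0.05 and a fold change above 1.5, and by the adjusted p alone for interactions and for any difference among the groups. Correlations were taken on log2 CPM (prior count 2) over genes averaging 1 CPM or more. The fits were tested on simulated data. Alternatives were DESeq2 1.42.0, a replicate block, both together, other size factors, no filter, a length offset, the compared groups alone and each library left out. The search for stretches 1 base off the CArG box was added after seeing the data.

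Deviations of same-numbered libraries of compared groups from their group means correlated at r = 0.19 to 0.69, so the numbers were used as pairs. Over all groups, same-numbered libraries ran from 0.03 to 0.69 (median 0.52) and other-numbered ones from -0.69 to 0.40 (median -0.23). The pairing was weak for WT replicate 3, at 0.19 with KO replicate 3 and 0.15 with KO+R replicate 3. This pairing comes from the values, since no label says what a replicate number marks. For RT-qPCR and western blots the study set values against untreated WT cells from one and the same culture. Counts given with no fit named come from the unpaired fit, which ignores any such sharing. Comparisons with WT+P or WT+R hold only 2 pairs. With the block, 8 residual degrees of freedom remained and the coefficient was 19%.

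The 9 genes and all lists were chosen with earlier results of these data known. Named were the 9 genes, Pdcd10, the 4 genes with the smallest p of each pathway list and of the endothelial list in each of 5 comparisons, the most abundant and the near-absent markers of other cells (under 1 TPM in every library), and the 3 genes most like each of the 9. The values of 2 genes that this rule names are not reported here.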

Additional observations from a re-analysis of the deposited data

How the results depend on the processing

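Over the 9 genes, 36 of 45 log2 fold changes in the 5 main comparisons, 29 of 36 in the 4 between drugs or between genotypes under a drug, and 6 of 18 interactions kept their direction under every alternative run. With the replicate block in edgeR, 1 of the 9 was called in KO+R against KO (4.98% of all genes) and 2 in KO+R against KO+P (9.62%). The block called 3 in WT+R against WT (4.56%) and 5 over the 6 groups (23.2%), and changed no other count. When the library labelled WT replicate 1 was also left out, these counts were 1, 1, 0 and 5, where 708, 1395, 404 and 2800 of 14831 genes were called. DESeq2 with the replicate block called 2 in KO against WT (390 of all 27228 genes), 2 in KO+P against KO (924) and 3 in KO+R against KO (1111). The same fit called 4 in WT+R against WT (971), 1 in KO+P against WT+P (258) and 1 in KO+R against WT+R (301). Between the drugs it called 4 in KO+R against KO+P (1791) and 2 in WT+R against WT+P (1230), and it called 8 over the 6 groups (5630). DESeq2 alone called 1 in KO+R against KO (1.73% of all genes), 2 in WT+R against WT (2.01%) and 1 in KO+P against WT+P (0.217%). Without the block it also called 1 in KO+R against WT+R (0.264%) and 8 over the 6 groups (10.8%). With the compared groups alone 1, Tgfbr2, was called in KO+R against KO (277 of 13590 genes) and 0 in WT+R against WT (8 of 13892). The length offset gave 0 in WT+R against WT (154 of 14838), and no filter gave 5 over the 6 groups (1395 of 27228). Leaving out each library in turn gave 0 to 1 in WT+R against WT, 0 to 1 in KO+P against KO and 1 to 4 over the 6 groups.

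The direction turned for Tgfbr2 in KO against WT with the length offset (-0.04), and, under the block when the library labelled WT replicate 1 was left out, for Tgfb1 in WT+R against WT (0.04) and the propranolol interaction of Tagln (0.02). Leaving out libraries turned it for Tgfbr2 (-0.18 to 0.13) and Snai1 (-0.05 to 0.52) in KO against WT, Snai2 (-0.08 to 0.26) and Tagln (-0.17 to 1.42) in KO+P against KO, Tgfb1 in KO+R against KO (-0.04 to 0.20), Tgfbr1 (-0.33 to 0.58) and Tagln (-0.31 to 2.67) in WT+P against WT, Tgfb1 (-0.18 to 0.01) and Cdh2 (-0.64 to 0.05) in WT+R against WT, and the propranolol interaction of Tagln (-1.83 to 1.14). Among values not printed elsewhere, Tgfbr2 in KO+P against WT+P ranged from -0.45 to 0.73 and Snai1 in KO+R against WT+R from -0.08 to 1.31. Beyond what fewer libraries imply, the cause was not tested.

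Over all genes the calls ranged from 0 to 390 in KO against WT, 0 to 924 in KO+P against KO, 51 to 1111 in KO+R against KO, 0 to 546 in WT+P against WT, 8 to 971 in WT+R against WT, 0 to 258 in KO+P against WT+P, 0 to 301 in KO+R against WT+R, 101 to 1791 in KO+R against KO+P, 0 to 1230 in WT+R against WT+P, 0 to 14 and 0 to 20 for the propranolol and rapamycin interactions and 582 to 5630 over the 6 groups. Groups of 2 or 3 libraries limit the comparisons, and Snai1 had as few as 26 reads in a library, whose part in its spread was not tested.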
